A study of Rattus norvegicus with 3 samples.

Results

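The genes described here are 9 components, regulators and receptors of the complement system, C1qa, C1qb, C1qc, C1s, C3, C3ar1, C5ar1, Serping1 and Itgam. They were taken by gene symbol from the 18425 genes of the deposited table, and all 9 were found. Wild-type (WT) Sprague Dawley rats received 1 µl into the vitreous at postnatal day 1 (P1), and retinas were collected at P4 for total RNA sequencing. The buffer retinas received citrate buffer at pH 4.5, the vehicle in which STZ was prepared, the saline retinas received saline, and the STZ retinas received 10 µg of STZ (streptozotocin), a nitrosourea linked to a sugar that alkylates DNA. There was 1 library per condition, so no difference below has a replicate check, no p-value was computed, and the difference between the libraries of the 2 controls is the only measure of how far libraries without STZ lay apart. The paper reports that for intravitreal injection the right eyes received STZ and the left eyes of the same rats citrate buffer. Whether the sequenced buffer and STZ retinas came from the same rats is not stated. How many animals or retinas went into a library is not given in the sources used here.

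Complement is a cascade of plasma and tissue proteins that tags cells and debris for removal. In the classical pathway, C1q, built from the chains of C1qa, C1qb and C1qc, binds its target and sets off the proteases C1r and C1s, which cleave C4 and C2 and so lead to the cleavage of C3. Fragments of C3 that stay on the target are read by receptors such as the CR3 integrin, and the soluble fragments of C3 and C5 signal through the receptors encoded by C3ar1 and C5ar1. In the retina and brain, C1q is made mostly by microglia, the resident macrophages, and C1q, C3 and CR3 are known for their part in the removal of synapses and dying cells during development.

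The libraries held 21992701 reads in buffer, 21977846 in saline and 22031241 in STZ, so depth differed little between them. All 9 retinal markers were detected in all 3 libraries, with 39297 to 42467 reads in sum. Markers of other tissue differed between the libraries. The 8 pigment and ciliary epithelium genes summed to 2972 reads in buffer, 9755 in saline and 3015 in STZ, and the 6 lens genes to 208, 481 and 2819. Not every gene of the lens list followed its sum. Cryaa had 55, 211 and 928 reads and Cryba1 22, 62 and 731, while Mip had 73.2, 73.2 and 86.3 estimated reads. Whether the lens sum reflects lens tissue was not tested. Reads of the 2 measured lymphocyte genes summed to 2 to 5 per library, with Nkg7 at 0 in buffer and STZ. The 6 erythroid genes summed to 833, 1208 and 629 reads.

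Promoter sequence was at hand for 5 of the 9 genes in the RefSeq table of the assembly GRCr8, namely C1qa, C1qb, C3, C3ar1 and Itgam. In that annotation C1qb, C1qc and C1qa are consecutive protein-coding genes on chromosome 5, C1s lies next to C1r, C5ar1 next to C5ar2 and Itgam next to Itgax, and none of the 9 overlaps another annotated gene. The 250 bases before the start that the promoter table uses are shown for C1qa and C1qb, whose reads were higher in STZ, for the receptor gene Itgam, and for C3, whose reads were not. Capitals mark the matches to 2 short motifs on either strand, the core GAGGAA of sites for PU.1, a transcription factor of myeloid cells, and the STAT site TTCNNNGAA. C1qa lies at chr5:154419934-154420183 on the minus strand, C1qb at chr5:154407828-154408077 on the minus strand, Itgam at chr1:192089342-192089591 on the plus strand and C3 at chr9:2201340-2201589 on the minus strand. These positions are those of the GRCr8 windows, while the reads were mapped to rn6. For C1qa, C1qb and C3 the window adjoins the outermost annotated start of the gene, and for Itgam and C3ar1 it does not, so distances in Itgam are from the start used in the promoter table.
C1qa: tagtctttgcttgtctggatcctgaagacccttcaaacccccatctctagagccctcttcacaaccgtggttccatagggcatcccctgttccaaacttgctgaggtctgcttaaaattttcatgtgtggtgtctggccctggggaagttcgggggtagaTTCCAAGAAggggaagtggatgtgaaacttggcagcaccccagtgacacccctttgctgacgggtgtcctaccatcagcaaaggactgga
C1qb: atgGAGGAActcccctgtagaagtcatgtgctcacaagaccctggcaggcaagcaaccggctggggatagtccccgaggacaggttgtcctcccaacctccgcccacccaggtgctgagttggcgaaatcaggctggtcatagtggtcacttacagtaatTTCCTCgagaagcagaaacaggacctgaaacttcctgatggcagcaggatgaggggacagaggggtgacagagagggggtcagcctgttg
Itgam: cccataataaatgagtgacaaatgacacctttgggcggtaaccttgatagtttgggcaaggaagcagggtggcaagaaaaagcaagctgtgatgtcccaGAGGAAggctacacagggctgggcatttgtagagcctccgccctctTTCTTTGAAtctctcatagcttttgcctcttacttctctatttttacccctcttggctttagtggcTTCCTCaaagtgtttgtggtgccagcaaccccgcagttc
C3: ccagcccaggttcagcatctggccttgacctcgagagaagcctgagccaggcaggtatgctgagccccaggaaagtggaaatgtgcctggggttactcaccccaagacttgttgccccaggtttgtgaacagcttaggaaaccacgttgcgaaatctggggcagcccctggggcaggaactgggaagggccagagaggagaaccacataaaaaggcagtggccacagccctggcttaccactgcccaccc

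The C1qb window held the PU.1 core at 2 places and the Itgam window at 2 places. The STAT site was matched in C1qa, 82 to 90 bases before the start, and in Itgam, 97 to 105 bases before it. Neither motif was found in the C3 window, nor in that of C3ar1. The remaining motif searched, the interferon element core GAAANNGAA, was found in none of the 5 windows. Over 27457 promoters of the same length, 23.2% held the PU.1 core, 7.52% the STAT site and 7.99% the interferon element core. A match is a description of these letters, and its absence says nothing of a factor.

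The C1q chain genes were 2.75 to 3.48 times higher in STZ than in buffer and 2.27 to 2.61 times higher than in saline. The complement C3a receptor gene C3ar1 was also higher in STZ than in either control. Serping1, which encodes the inhibitor of C1r and C1s, was at nearly the same level in all 3 libraries. C3 and C1s were highest in saline. These folds are those of the methods, (FPKM + 1)/(FPKM + 1), where FPKM is a level per kilobase of gene and per sequencing depth and the added 1 pulls folds of weakly expressed genes toward 1. A log2 fold above 0.62 is called higher and one below -0.62 lower, the thresholds of the methods. By this rule 4 of the 9 genes were called higher in STZ than in buffer, C1qa, C1qb, C1qc and C3ar1, where 2.25% of all 18425 genes were, and 0 were called lower, where 1.04% of all genes were. Against saline the same 4 genes were called higher, beside 2.04% of all genes, and 0 lower, beside 1.75%. Both comparisons share the STZ library and are not independent. In saline against buffer 1 of the 9 was called higher, C1s, beside 1.00% of all genes, and 0 lower, beside 0.429%. Over the 9 genes the median log2 fold was 0.50 for STZ over buffer, 0.30 for STZ over saline and 0.28 for saline over buffer. For the 14885 genes whose counts averaged 10 or more, the medians were 0.028, 0.013 and 0.016. Saline thus also lay above buffer for the median member, by less than STZ did.

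**Figure D1:**
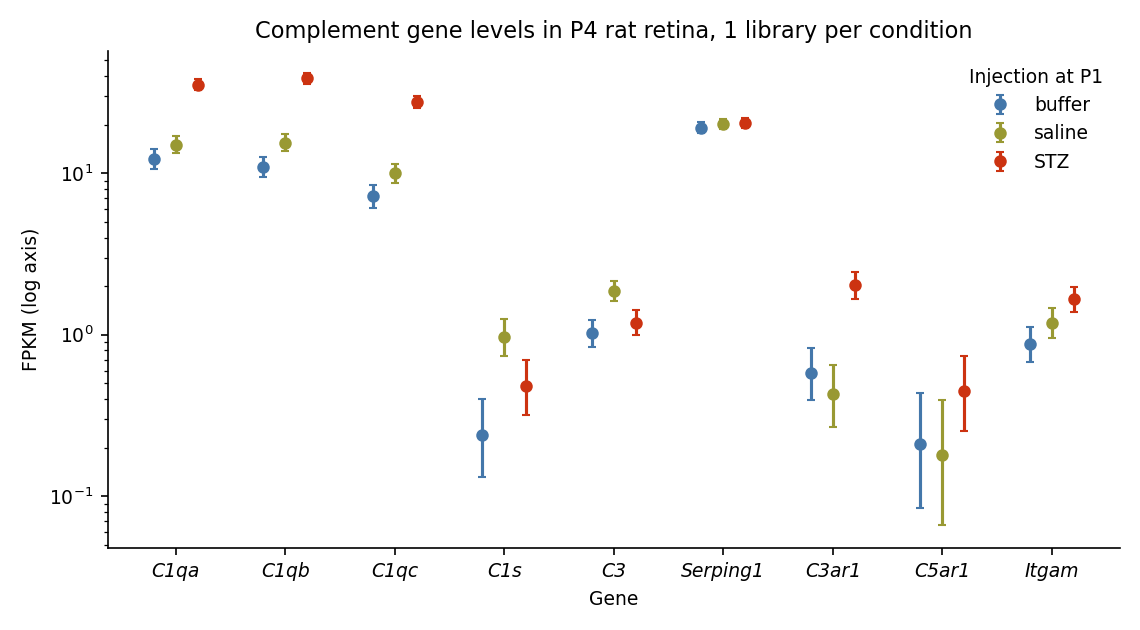
FPKM (log axis) of the 9 complement genes in the buffer, saline and STZ libraries, 1 library each, with bars for the 95% Poisson counting interval. The 3 C1q genes sit at 27.7 to 38.7 in STZ against 7.25 to 15.5 in the controls, Serping1 stays at 19.1 to 20.5, and C1s and C3 are highest in saline.

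C1qa (gene 298566), which encodes the A chain of C1q, had 208 reads in buffer, 255 in saline and 602 in STZ. Its level was 12.3, 15.1 and 35.4 FPKM. C1qb (gene 29687), the B chain, had 205, 288 and 722 reads and levels of 11.0, 15.5 and 38.7 FPKM. The 3 libraries stood in the same order for both chains, buffer lowest and STZ highest. C1qc (gene 362634), the C chain, had 149, 216 and 591 reads and 7.25, 10.0 and 27.7 FPKM. On the scale of all genes in a library, C1qb stood at percentile 57.0 in buffer, 64.0 in saline and 84.5 in STZ.

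Without a pseudocount, the share of library reads gave a count ratio with an exact 95% interval that covers counting error only, since reads that carry no molecular identifier may be copies of 1 molecule. In STZ against buffer this ratio was 2.89 (2.46 to 3.40) for C1qa, 3.52 (3.01 to 4.13) for C1qb and 3.96 (3.30 to 4.77) for C1qc. Against saline it was 2.36 (2.03 to 2.74), 2.50 (2.18 to 2.88) and 2.73 (2.33 to 3.21). Between the controls, saline over buffer, it was 1.23 (1.02 to 1.48), 1.41 (1.17 to 1.69) and 1.45 (1.17 to 1.80). The difference between the control libraries was therefore larger than counting error for all 3 chains, and smaller than that of STZ from either control.

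The make-up of the C1q reads was close in the 3 libraries. C1qa held 37.0% of the 562 C1q reads in buffer (95% Clopper-Pearson interval 33.0 to 41.2), 33.6% of 759 in saline (30.2 to 37.1) and 31.4% of 1915 in STZ (29.4 to 33.6). C1qc held 26.5% (22.9 to 30.4), 28.5% (25.3 to 31.8) and 30.9% (28.8 to 33.0). The share of C1qa was lowest and that of C1qc highest in STZ, with intervals that still overlap those of buffer, and C1qb held 36.5%, 37.9% and 37.7%.

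C1s (gene 192262), the protease that cleaves C4 and C2, was weakly detected, with 14 reads in buffer, 57 in saline and 28 in STZ, or 0.24, 0.97 and 0.48 FPKM. Saline was highest and buffer lowest. The count ratio in saline against buffer was 4.07 (2.24 to 7.92), larger than that of any C1q chain, and the ratio in STZ was 1.997 against buffer (1.02 to 4.10) and 0.49 against saline (0.30 to 0.78). Its fold of 1.59 in saline against buffer passed the threshold by little, and with a pseudocount of 0.1 it was 3.15. C1r, the partner protease, had 37, 54 and 61 reads.

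C3 (gene 24232), the central component on which all pathways converge, had 109 reads in buffer, 198 in saline and 127 in STZ, and levels of 1.02, 1.86 and 1.19 FPKM. The count ratio in STZ against buffer was 1.16 (0.89 to 1.52), so a difference within these bounds was not detectable at this depth. The ratio of saline to buffer was 1.82 (1.43 to 2.32), and in STZ against saline 0.64 (0.51 to 0.80). C3 thus separated the saline library from the other two, while its fold, 1.42 in saline against buffer, did not pass the threshold.

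The saline library also held the most reads of the pigment and ciliary epithelium genes, with a count ratio in sum of 3.28 against buffer (3.15 to 3.42). Aldh1a1 of that list had 6838 reads in saline and 1904 in each of the other libraries. The 5 perivascular macrophage genes summed to 11, 104 and 69 reads, with Cd163 and Pf4 at 0 reads in buffer. The 6 fibroblast and mesenchyme genes summed to 1025, 1057 and 641. Pdgfra held 650, 581 and 269 of these reads, and Col1a1 held 291, 316 and 250. Lum had 0, 18 and 3 reads and Dcn 1, 10 and 0. Col1a2 had 0, 59.5 and 104 estimated reads, and since these counts are fractional its 0 in buffer is uncertain. The part of such cells in the values of C1s and C3 was not tested.

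Serping1 (gene 295703), the C1 inhibitor, had 663 reads in buffer, 699 in saline and 715 in STZ, and 19.1, 20.2 and 20.5 FPKM. The count ratio was 1.08 in STZ against buffer (0.97 to 1.20), 1.02 in STZ against saline (0.92 to 1.13) and 1.05 in saline against buffer (0.95 to 1.17). All 3 intervals hold 1 and are the narrowest, as ratios of upper to lower bound, among the 9 genes.

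**Figure D2:**
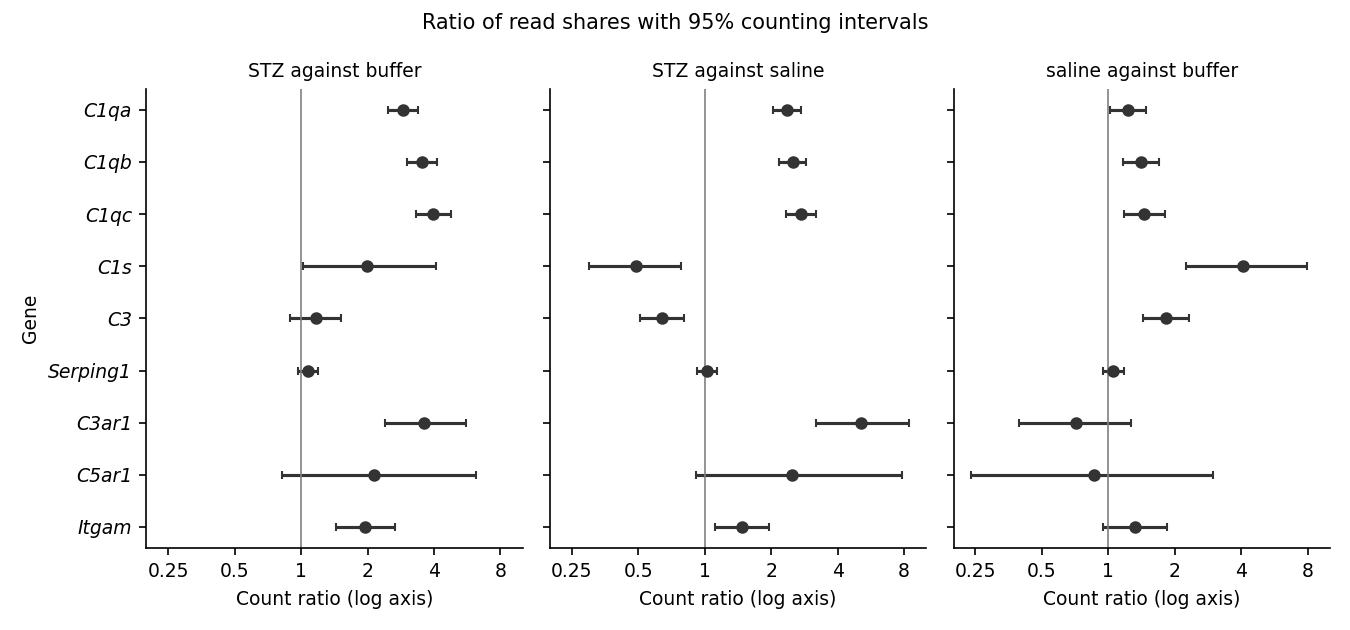
Count ratio (log axis) of each of the 9 genes, in a panel for each pair of libraries, with bars for the exact 95% counting interval and a line at 1. The C1q genes and C3ar1 lie right of 1 in both panels with STZ, Serping1 lies on 1 in all panels, and C1s and C3 lie left of 1 in STZ against saline and right of 1 in saline against buffer.

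Of the receptors, C3ar1 (gene 84007), which binds the fragment C3a, had 31 reads in buffer, 22 in saline and 112 in STZ, or 0.58, 0.43 and 2.03 FPKM. STZ was highest, and the controls differed by less than counting error, with a ratio of 0.71 in saline against buffer (0.39 to 1.27). The count ratio in STZ was 3.61 against buffer (2.404 to 5.56) and 5.08 against saline (3.20 to 8.43), and the folds were 1.92 and 2.12. Unlike the C1q genes, C3ar1 was not higher in saline than in buffer.

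Itgam (gene 25021), the alpha chain of the CR3 integrin, also called CD11b, had 66 reads in buffer, 87 in saline and 129 in STZ, and 0.88, 1.19 and 1.66 FPKM. Its count ratio was 1.95 in STZ against buffer (1.44 to 2.67) and 1.48 against saline (1.12 to 1.96), and its folds of 1.42 and 1.22 did not pass the threshold. Against buffer it passed with CPM (1.71) or TPM (1.56) in place of FPKM and with a pseudocount of 0.1 (1.80). Itgb2, the beta chain that pairs with it, had 46, 60 and 136 reads, with ratios in STZ of 2.95 against buffer (2.10 to 4.22) and 2.26 against saline (1.66 to 3.12). Both chains of CR3 thus had their most reads in STZ.

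C5ar1 (gene 113959), the receptor of C5a, had 7 reads in buffer, 6 in saline and 15 in STZ, fewer than any other of the 9 genes, and 0.21, 0.18 and 0.45 FPKM. The count ratio was 2.14 in STZ against buffer (0.82 to 6.202) and 2.49 against saline (0.91 to 7.85), so a difference was not detectable at this depth. It is the 1 gene of the 9 with a mean under 10 counts.

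By counting error alone, 6 of the 9 genes had an interval above 1 in STZ against buffer, the C1q genes, C1s, C3ar1 and Itgam, where 21.7% of all genes did. Against saline 5 did, where 22.1% of all genes did, and 2 genes, C1s and C3, had an interval below 1, where 19.5% of all genes did. Of the ratios of saline to buffer 5 had an interval above 1, the C1q genes, C1s and C3, where 13.3% of all genes did. Between the 2 libraries without STZ, 13.3% of all genes were thus higher by more than counting error. The shares in the comparisons with STZ also include any effect of STZ, and each share counts 1 direction only.

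Per kilobase, the order of the genes differed between the libraries. In buffer Serping1 was highest, then C1qa and C1qb, which were not apart beyond their counting intervals, then C1qc, and the others lay at 0.21 to 1.02 FPKM, where the intervals of each neighbouring pair overlap. In saline the first 4 places were held by the same genes, and C1s stood above C3ar1. In STZ C1qb and C1qa came first, again with overlapping intervals, then C1qc, and Serping1 after them. C3ar1 moved to the place after Serping1, with an interval that overlaps that of Itgam.

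Around these 9 genes, the complement pathway was followed in a list of 56 genes, of which 51 are in the table and 37 averaged 10 counts or more. Leaving out the 9 genes, 29 remained. Of these 29, 4 were called higher in STZ than in buffer, C2, Clu and Itgb2 among them, and 1 lower, Cd93, where 2.58% and 1.15% of the 14885 genes with such counts were. Against saline 2 were called higher, Itgb2 among them, and 2 lower, Colec12 and Cd93, beside 2.37% and 1.95%. In saline against buffer 1 was called higher, Colec12, beside 1.01%, and 0 lower, beside 0.443%. The median log2 fold of the 29 genes was 0.13, 0.07 and 0.11 in the 3 comparisons, and with the 9 genes it was 0.16, 0.09 and 0.16 over 37.

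C2, the substrate of C1s that forms the C3 convertase with C4, had 131 reads in buffer, 187 in saline and 290 in STZ, where its fold over buffer was 1.87. Its fold against saline, 1.43, did not pass. Clu, or clusterin, which binds the terminal complex, had 493, 696 and 982 reads and folds of 1.92 against buffer and 1.39 against saline. Both genes stood in the order of the C1q genes, buffer lowest and STZ highest. C4a had 56.3, 64.6 and 65.9 estimated reads and C4b 11.5, 21.8 and 21.7, and since these near-identical copies have fractional counts the split between them is uncertain.

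The lectin, terminal and membrane-bound parts of the system held few calls. They had 5, 1 and 8 genes that averaged 10 counts or more. Of all genes with such counts, 2.58% were called higher and 1.15% lower in STZ against buffer. So few genes would hold few calls at those shares too. Of the terminal components C5, C6, C7, C8a and C8b, none reached a mean of 10 counts, and C8g, with 217, 245 and 238 reads, was the 1 terminal gene above it. Of the 8 membrane regulators, 0 were called in any comparison, and Cr1l, which encodes the rodent C3 convertase inhibitor Crry, had 709, 783 and 838 reads. Masp2, the lectin pathway protease, had 685, 606 and 643. The most abundant genes of the list per kilobase were Calr, encoding the chaperone calreticulin, and Lrp1, a scavenger receptor, with means of 322 and 31.5 FPKM and folds of 1.22 and 0.94 in STZ against buffer.

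Cd93, which is expressed on endothelium and myeloid cells, was the gene called lower in STZ against both controls, with 203, 176 and 42 reads and count ratios of 0.21 (0.14 to 0.29) against buffer and 0.24 (0.17 to 0.33) against saline. The endothelial genes Cldn5, with 188, 154 and 37 reads, and Cdh5, with 119, 114 and 28, were also lowest in STZ, and the 6 endothelial genes summed to 13595, 14976 and 10093. Kdr alone held 13149, 14564 and 9972 of these reads. Colec12, a scavenger receptor of the collectin family, had 1 read in buffer, 45 in saline and 7 in STZ, a ratio of 45.0 in saline against buffer with a counting interval of 7.68 to 1818. Its 3 values follow the order of C1s, saline highest and buffer lowest.

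**Figure D3:**
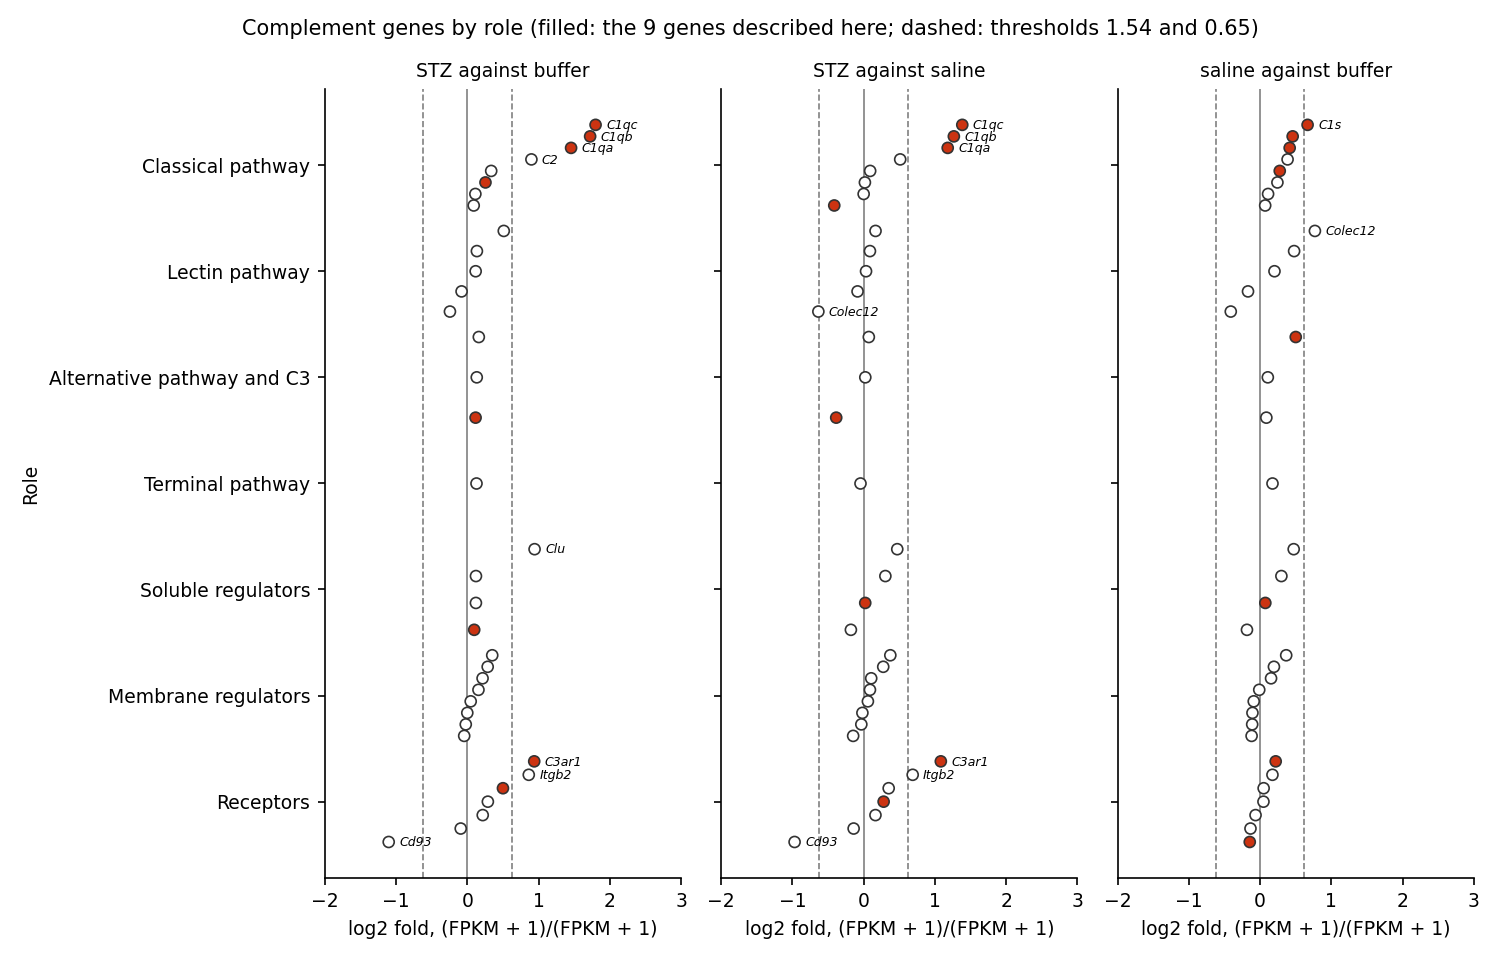
Log2 fold, (FPKM + 1)/(FPKM + 1), of 36 complement genes that averaged 10 counts or more, grouped by role, in the 3 comparisons of single libraries. Filled points are genes of the 9 described, dashed lines are the thresholds, and genes past them are named: the C1q genes reach 1.46 to 1.80 in STZ against buffer, and Cd93 lies at -1.10.

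Most microglia markers were higher in STZ than in buffer, as the C1q genes were. In bulk retina, more cells of a type and more RNA per cell cannot be told apart. Of 17 microglia genes that encode no complement protein, all detected in every library, 14 were called higher in STZ than in buffer and 0 lower. Of all genes that averaged 10 counts or more, 2.58% and 1.15% were. In STZ against saline 14 were also higher and 0 lower, beside 2.37% and 1.95%. The count ratios of the 17 genes in STZ against buffer ran from 0.75 to 5.34 with a median of 2.84. The C1q reads in sum had a ratio of 3.40 (3.10 to 3.74). Between saline and buffer the microglia ratios lay on both sides of 1, from 0.57 to 2.05 with a median of 1.16. The C1q ratio there was 1.35 (1.21 to 1.51). The C1q reads thus lay within the range of the microglia genes in both.

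Olfml3, Csf1r and Fcrl2 were among the 4 microglia genes with the most reads. Csf1r, the receptor on which microglia depend, had 449 reads in buffer, 540 in saline and 905 in STZ. Fcrl2, listed as the microglia gene Fcrls, had 135, 176 and 574. Olfml3 went the other way, with 1233, 1194 and 932, and it holds a large share of the list. Set against the list as a whole, C1q had 18.7 reads per 100 microglia reads in buffer, 23.7 in saline and 35.9 in STZ, which is 1.93 times more in STZ than in buffer (1.73 to 2.14). Without Olfml3 it had 31.6, 37.8 and 43.6, and the excess in STZ was 1.38 over buffer, with a lower bound of 1.23, and 1.15 (1.04 to 1.27) over saline, and in summed TPM without Olfml3 to 1.20 and 1.06. How far C1q exceeded the other microglia genes therefore depended on the list.

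On the same base without Olfml3, C3ar1 was at 1.46 in STZ against buffer (0.97 to 2.26) and 2.32 against saline (1.46 to 3.87), and Itgam at 0.79 (0.58 to 1.09) and 0.68 (0.51 to 0.90). C3 was at 0.47 (0.36 to 0.62) and Serping1 at 0.44 (0.39 to 0.49) in STZ against buffer. C1q and C3ar1 kept pace with the microglia reads or exceeded them. Itgam did not exceed the microglia reads, and in STZ against saline it fell behind them on this base. On the list with Olfml3, Itgam was at 1.105 (0.81 to 1.515) against buffer and 0.89 (0.67 to 1.19) against saline. Both of these intervals hold 1, so its falling behind depended on the list. C3 and Serping1, whose levels were similar in STZ and buffer, did not follow the microglia reads. Whether the number of microglia accounts for the difference was not tested.

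**Figure D4:**
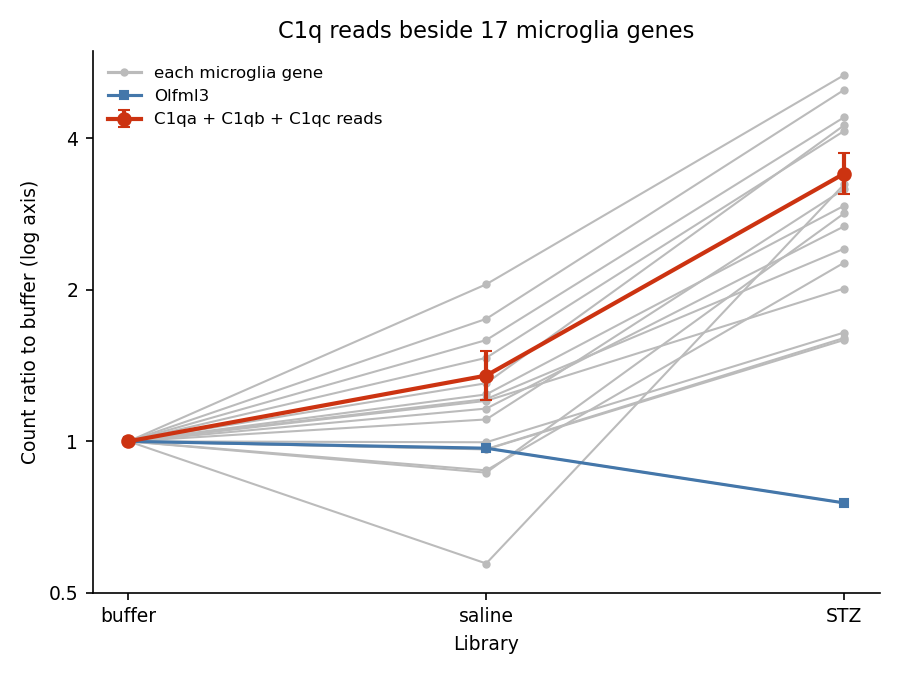
Count ratio to buffer (log axis) in the buffer, saline and STZ libraries for the summed C1qa, C1qb and C1qc reads, with bars for the 95% counting interval, and for each of 17 microglia genes. C1q reaches 1.35 in saline and 3.40 in STZ, inside the range of the microglia genes, of which Olfml3 alone lies below 1 in STZ.

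Few reads came from the measured monocyte, neutrophil and lymphocyte genes, while 3 of 9 and 5 of 7 genes of these lists were not analysed here. The 6 monocyte and neutrophil genes in the table summed to 62, 78 and 98 reads. The ratio of this sum was 1.58 in STZ against buffer (1.14 to 2.21) and 1.25 against saline (0.92 to 1.71). Most of these reads were of Plac8, with 44, 60 and 57, and of Ngp, with 18, 9 and 32. The ratio of Ngp in STZ was 1.77 against buffer (0.97 to 3.36) and 3.55 against saline (1.65 to 8.45). Mpo had 0 to 1 reads per library, and S100a8 and S100a9 had 0 to 5. Pf4, a macrophage and platelet gene, had 0, 5 and 7 reads. The perivascular macrophage sum was higher in STZ than in buffer by a ratio of 6.26 (3.29 to 13.1) but lower than in saline, at 0.66 (0.48 to 0.91), an order that the C1q genes did not share.

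Over the 3 libraries, the genes whose pair of count ratios to buffer lay nearest to that of the C1q reads were Ptpn6, Myo1f, Blnk, Ctsz and Lad1, among 12770 genes outside the complement list that averaged 50 counts or more and had reads in every library. The C1q reads had log2 ratios of 0.43 in saline and 1.77 in STZ. Ptpn6, a phosphatase of blood-lineage cells, had 40, 53 and 138 reads and lay at a distance of 0.033 on this scale. Myo1f, a myosin of the same cells, had 62, 86 and 213, and Blnk, an adaptor of B cells and macrophages, 36, 50 and 119. Ctsz, a lysosomal cathepsin, had 159, 225 and 522 reads. Lad1 was the farthest of the 5, at 0.13. With 3 libraries, such nearness is a description of 2 ratios only.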

How the data were processed

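Total RNA of P4 rat retinas was sequenced in 3 libraries, 1 per condition. Per the paper's methods and the submitters' processing notes, reads were checked with FastQC, trimmed, and mapped to rn6 with TopHat2, reads with several locations were discarded, and an R script of the authors gave FPKM. The strandedness of the libraries and the counter are not given in the sources used here. The authors deposited FPKM, TPM and an estimated count for each gene and library. The estimated counts as deposited are whole for all 9 genes but fractional in at least 1 library for 15.5% of all genes, and they were rounded before intervals were computed. The tables per library and the joint table differ by 0.

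Folds were (FPKM + 1)/(FPKM + 1) with log2 thresholds of 0.62 and -0.62, those of the methods. Count ratios have exact Clopper-Pearson 95% intervals, levels have exact Poisson intervals, and ratios per microglia read have conditional intervals for the odds ratio. The calculation of the count ratio interval was tested on simulated Poisson counts only. These hold no copied reads and no spread between libraries, so the test cannot show how the intervals hold in real libraries. Alternatives were a pseudocount of 0.1, CPM or TPM in place of FPKM, scaling in R 4.3.3 by TMM (edgeR 4.0.16) or by the size factors of DESeq2 1.42.0, other thresholds and filters, and the mean of both controls. No count model was fitted, since there are no replicates. Python 3.11.15 with scipy 1.17.1 was used.

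The 9 genes, the lists and the rules were chosen with earlier results of these data known. Genes named outside the 9 are the listed complement genes that passed a threshold with a mean of at least 10 counts, the most abundant of that list, up to 4 genes with the most reads per marker list, and the 5 nearest patterns. C1r, C4a, C4b, C8g, Itgb2 as the CR3 partner, and Nkg7, Cd163, Lum, Dcn, Col1a2, Cdh5, Mip, Mpo, S100a8, S100a9 and Pf4 were named after their values were seen or for their role. Some genes of the lists are not reported here by name, and 1 of them was left out of the plot by role. Symbols not in the table were matched through the gene table of GRCr8.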

Additional observations from a re-analysis of the deposited data

How the results depend on the processing

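Across the alternatives tried, the C1q genes and C3ar1 were called higher in STZ against both controls except with thresholds of 2 and 0.5, where C3ar1 at 1.92 against buffer was not. The number of the 9 genes called higher in STZ against buffer was 4, and 7 with a pseudocount of 0.1, which added C1s, C5ar1 and Itgam, and 5 with CPM or TPM, which added Itgam. In STZ against saline 0 were lower, but 1 (C1s) with a pseudocount of 0.1 or with CPM, and 2 by counting interval. In saline against buffer 1 was higher, but 2 with a pseudocount of 0.1, CPM or TPM, which added C3, 0 with thresholds of 2 and 0.5, and 5 by counting interval. The share of all genes called was not computed with a pseudocount of 0.1, CPM, TPM or thresholds of 2 and 0.5. Numbers at those settings, here and in the complement list, therefore cannot be set against all genes.

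In the complement list of 37 genes, the numbers higher in STZ against buffer were 8, 4 without the 9 genes, 14 with a pseudocount of 0.1 and 4 with thresholds of 2 and 0.5. Against saline 6 were higher, and 2 without the 9 genes, while 2 were lower, but 1 among genes averaging 50 counts or more and 0 with thresholds of 2 and 0.5. In saline against buffer 2 were higher, but 0 with a mean of at least 50 counts or with thresholds of 2 and 0.5, 1 without the 9 genes and 5 with a pseudocount of 0.1, where 1 was lower. With that pseudocount the median log2 fold was 0.29 in STZ against buffer and 0.26 in saline against buffer. C1q per microglia read in STZ against buffer was 1.93, but 1.38 without Olfml3, 1.67 in summed TPM, and 1.20 with both changes, an alternative chosen after seeing the data. Against saline it was 1.52, 1.15 without Olfml3 and 1.06 with both. No paired analysis was possible because each condition has 1 library, and for the same reason no library could be left out.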
